A study of Mus musculus with 12 samples.

Results

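The comparison set 3 arrays of lungs from Nrf2 knockout mice against 3 arrays of lungs from wild-type mice, all after mechanical ventilation. These 6 arrays were chosen by their sample titles, out of 12 in the series, and all 9294 genes that passed the signal filter were tested on them. The mice were CD-1/ICR, either Nrf2+/+ (wild type) or Nrf2-/- (knockout), and both ventilated groups were kept for 2 h on a ventilator delivering a high tidal volume of 30 ml/kg (HVT). Total RNA of the left lung lobe was read on Affymetrix Murine Genome 430A arrays. In the remaining 6 arrays, 3 of each genotype, mice of the same strain breathed on their own for 2 h (SpV); 1 wild-type SpV array is labelled as whole lung. The knockout is a whole-body loss, so every cell type of the lobe lacks the factor, and the labels do not say whether replicates are separate animals. The series title names oxidative stress and ventilator injury as the subject, and this comparison asks which lung transcripts differ without Nrf2 once the lung is overstretched.

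Nrf2, the protein of Nfe2l2, is a transcription factor held in check by Keap1, which marks it for degradation. When electrophiles or oxidants modify Keap1, Nrf2 builds up, pairs with a small MAF protein and binds antioxidant response elements near its target genes. Those targets make and recycle glutathione, reduce thioredoxin and peroxides, and conjugate, oxidise or export foreign chemicals. Mice without Nrf2 are known to be more sensitive to oxidant injury of the lung.

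Ventilated knockout lungs had less RNA for 12 enzymes of those tasks, and more RNA for some airway secretory proteins and for heart muscle proteins. In limma, 69 genes (0.742% of those tested) differed at an adjusted p under 0.05, of which 38 were lower in the knockout (0.409%) and 31 higher (0.334%). Beyond Nfe2l2, the largest fall was that of the carboxylesterase Ces1g, to 0.0679 of the wild-type level. Ces1g reached the signal filter on wild-type arrays alone. The largest rise was that of Bpifa1, a secreted airway defence protein, by 31.2-fold. For all 69 genes the 3 knockout arrays lay wholly above or wholly below the 3 wild-type arrays, an arrangement found for 25.3% of all genes tested. At an unadjusted p under 0.05, 1192 genes (12.8%) differed. Folds and log2 differences are on the scale of log2(signal + 16), which understates changes of weak signals.

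The knockout ventilated arrays were dimmer and had a higher actin ratio (signal at the 3' end over that at the 5' end of the beta-actin control), a sign of shorter RNA. Their trimmed mean signals before normalization were 194, 247 and 182, against 279, 439 and 439 in wild type (exact permutation test, two-sided p = 0.1, the smallest that 3 against 3 allows). The actin ratios were 3.10, 2.21 and 3.02 against 1.99, 1.58 and 1.53 (exact permutation test, two-sided p = 0.1), while the Gapdh ratios of the groups overlapped (exact p = 1). A fit that also held each array's actin ratio called 139 genes, and these include all 69. Whether brightness moved single genes was not tested. Of the arrays that enter only the estimate of the spread, knockout SpV array 1 stood apart, with a trimmed mean of 73.9 and an actin ratio of 8.76. Without it 470 genes were called under HVT, and these include all 69. Lung identity was clear on the 6 ventilated arrays: Sftpc, the surfactant protein of alveolar type II cells, had signals from 19054 to 23201, and Scgb1a1, the secretoglobin of club cells, from 22100 to 25274.

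Nfe2l2 checked the labels. Its signals were 2549.5, 2788 and 3278 on the wild-type ventilated arrays and 61.3, 36.6 and 42.3 on the knockout ones. The groups were far apart, with a log2 difference of -5.54 ± 0.20 (SE, n = 3 arrays per group, limma adjusted p = 1.42e-08), and the SpV arrays gave -5.55 ± 0.20. The gene lies at chr2:75675513-75704663 in GRCm38.p6, and the deleted stretch is not given in the labels, so the place of the probe set relative to it is not known here.

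The core of the antioxidant response element, TGACNNNGC on either strand, was searched from 250 bases before to 50 bases after each gene's start in the RefSeq promoters of GRCm38.p6. Of the 38 genes that fell, 28 had a promoter in that table and 5 of those held the core (17.9%). The share was 16.7% over the 7485 tested genes with a promoter and 10.7% (3 of 28) among the genes that rose, so the windows of the genes that fell held it about as often as those of all genes. The promoters below are shown because they belong to Nfe2l2, to a glutathione transferase and to the thioredoxin reductase that fell, and hold the core before the start. Each is the 250 bases upstream of the start, 5′ to 3′ on the gene's strand, with the 9 bases of the core (or its reverse complement) in capitals. The cores begin at -240 in Nfe2l2 (minus strand, chr2:75704664-75704913), -121 in Gsta3 (plus strand, chr1:21240335-21240584) and -92 in Txnrd1 (plus strand, chr10:82858956-82859205, 1 of 3 starts of the gene in the table). In Srxn1 the match, GCTAGGTCA, lies after the start, at 29 bases. A match describes letters only, and binding was not measured.
Nfe2l2: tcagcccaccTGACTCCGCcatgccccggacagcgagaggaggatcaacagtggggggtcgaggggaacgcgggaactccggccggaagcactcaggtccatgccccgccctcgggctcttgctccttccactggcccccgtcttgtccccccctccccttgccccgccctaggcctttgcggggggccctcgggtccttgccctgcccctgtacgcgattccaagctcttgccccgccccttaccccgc
Gsta3: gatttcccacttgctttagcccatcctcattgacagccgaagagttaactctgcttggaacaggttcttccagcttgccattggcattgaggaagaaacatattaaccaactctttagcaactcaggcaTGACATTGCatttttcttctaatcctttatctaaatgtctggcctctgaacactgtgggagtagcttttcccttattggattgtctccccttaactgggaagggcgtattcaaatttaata
Txnrd1: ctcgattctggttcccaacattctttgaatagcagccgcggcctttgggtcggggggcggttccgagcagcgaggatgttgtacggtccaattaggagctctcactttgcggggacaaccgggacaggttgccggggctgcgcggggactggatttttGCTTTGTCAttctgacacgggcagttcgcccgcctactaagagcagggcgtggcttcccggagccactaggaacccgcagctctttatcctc

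Enzymes of the Nrf2 programme fell in 6 of the 11 groups into which its genes were sorted. Over these groups 151 of 201 listed genes were measured, and 12 of the 151 were called lower (7.947%, against 0.409% of all genes tested) and 0 higher. Ces1g and Ces1f, among the 12, reached the signal filter on wild-type arrays alone. Of the 151, 95 had values below 0 and 56 above, with a median log2 difference of -0.19 against 0.01 over all genes, so most members had small values. The knockout and wild-type arrays were apart in the lower direction for 42 members (1204 of all 9294 genes tested were) and in the higher direction for 7 (12.4% of all genes). Without each ventilated array in turn, the number called lower was 7 without wild-type array 1 or 3 or knockout array 2 or 3, 8 without wild-type array 2 and 9 without knockout array 1. Without knockout SpV array 1 there were 21.

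Enzymes of the thioredoxin system fell. Srxn1, sulfiredoxin, which repairs overoxidised peroxiredoxins, had signals of 966, 606 and 916 in wild type and 157, 155 and 184 in the knockout. The knockout arrays lay far below the lowest wild-type array, and the log2 difference was -2.20 ± 0.21 (adjusted p = 0.000212). Txnrd1, the cytosolic thioredoxin reductase, had 2240.0, 1439 and 2340.3 against 672, 757 and 581, a log2 difference of -1.54 ± 0.27 (adjusted p = 0.0257). Other probe sets gave smaller values in part: a further one of Txnrd1 had -0.44 ± 0.40, and the remaining ones of Srxn1 had -2.20, -0.99 and -0.64. Both genes belong to a list with 14 measured members, of which 8 had values below 0, and no other member passed the test: the cytosolic thioredoxin Txn1 had -0.37 (adjusted p = 0.225) and the mitochondrial reductase Txnrd2 0.13 (adjusted p = 0.875).

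Glutathione genes were divided. Gclc, the catalytic subunit of the enzyme that limits glutathione synthesis, had signals of 6952, 5824 and 6483 in wild type and 2824, 2285 and 2429 in the knockout. The groups were far apart, at -1.35 ± 0.23 (adjusted p = 0.0201). Gclm, the regulatory subunit of the same enzyme, did not move with it: its signals of 729.5, 658 and 1005 in wild type overlapped the 871, 602 and 789 in the knockout, at -0.07 ± 0.29 (adjusted p = 0.936). Gsr, which recycles glutathione, had -0.54 ± 0.27 (adjusted p = 0.416). Gclc was the 1 called gene of 12 measured in this group.

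Among 19 glutathione transferases, which attach glutathione to electrophiles, Gstm1 and Gsta3 fell and the others did not pass. Gstm1 had signals of 4775, 3618 and 4162 in wild type and 1233, 974 and 899 in the knockout, a log2 difference of -2.003 ± 0.17 (adjusted p = 0.000118). Gsta3 had 987, 1040.5 and 1418 against 449, 210.5 and 224, or -1.97 ± 0.25 (adjusted p = 0.00312). The probe set of Gstm1 can bind related transcripts, so its value may include other mu-class genes. Further probe sets of Gstm1 had -2.15 ± 0.20, -1.44 ± 0.22 and -0.86 ± 0.25, the last also of a kind that can bind related transcripts. The next transferase was Gstm2, at -0.82 (adjusted p = 0.104), and the group's median was -0.14.

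Peroxide removal and quinone reduction each lost some enzymes. Gpx2, the glutathione peroxidase of epithelia, had 1133, 859.7 and 1506 in wild type and 364, 175 and 208 in the knockout, or -2.19 ± 0.29 (adjusted p = 0.00422). It was the 1 called gene of 10 for peroxide and superoxide removal, where catalase (Cat) had -0.59 (adjusted p = 0.267) and the mitochondrial superoxide dismutase Sod2 0.24 (adjusted p = 0.51). Nqo1, which reduces quinones by 2 electrons at a time, was weakly expressed on these arrays: 211, 193 and 238 in wild type and 49.9, 87.7 and 80.6 in the knockout, -1.40 ± 0.28 (adjusted p = 0.0419). The carbonyl reductase Cbr3 had 1036, 702 and 947 against 459, 275 and 261, -1.42 ± 0.27 (adjusted p = 0.0336). Of the 25 measured quinone, carbonyl and aldehyde enzymes these were the called pair, and the aldo-keto reductase Akr1b8 came next at -1.09 ± 0.23 (adjusted p = 0.0572).

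Carboxylesterases and aldehyde oxidases, which break down esters and oxidise aldehydes, held more called genes than any other of these groups, 4 of 11 measured, with 10 of 11 values below 0 and a median of -0.60. Ces1g had signals of 482, 389 and 647 in wild type and 33.0, 29.0 and 2.98 in the knockout. Its log2 difference was -3.88 ± 0.41 (adjusted p = 0.000592). Ces1f, close to it on chromosome 8, had 277, 263 and 245 against 24.5, 16.6 and 6.99, at -3.15 ± 0.35 (adjusted p = 0.000944), though its probe set can also bind related transcripts. The knockout signals of both are at the low end of the arrays' range, and the difference of Ces1g was -4.96 with 1 and -2.73 with 64 added before log2, in place of 16. Ces1g and Ces1f reached the signal filter on wild-type arrays alone. They were measured because they were high there, so their part in the count of 4 is no independent result. Aox1 had 1663, 1359.9 and 1818 against 427, 407 and 346, at -1.99 ± 0.16 (adjusted p = 8.64e-05), and the paralog Aox3, beside it on chromosome 1, had -1.16 ± 0.22 (adjusted p = 0.0379).

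No member was called among the Nrf2 circuit (13 measured, Nfe2l2 itself not among them), NADPH supply (11), heme and iron handling (13), conjugation and efflux (8) or cytochromes P450 (15). Within the heme group Blvrb, biliverdin reductase B, had 151, 189 and 183 in wild type and 57.7, 9.05 and 13.7 in the knockout, -2.32 ± 0.54 (adjusted p = 0.0851). Fth1, the ferritin heavy chain, had -0.50 ± 0.11 (adjusted p = 0.0767). Hmox1, heme oxygenase 1, chosen here after its values were seen, had 473, 325 and 566 against 80.0, 83.0 and 109, -2.12 ± 0.56 (adjusted p = 0.133). The groups of these last genes do not overlap, yet each missed the threshold. Pgd, an NADPH-producing enzyme of the pentose phosphate pathway, had -0.88 ± 0.22 (adjusted p = 0.104), and Keap1, the inhibitor of Nrf2, had 0.01 ± 0.22 (adjusted p = 0.991).

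**Figure D1:**
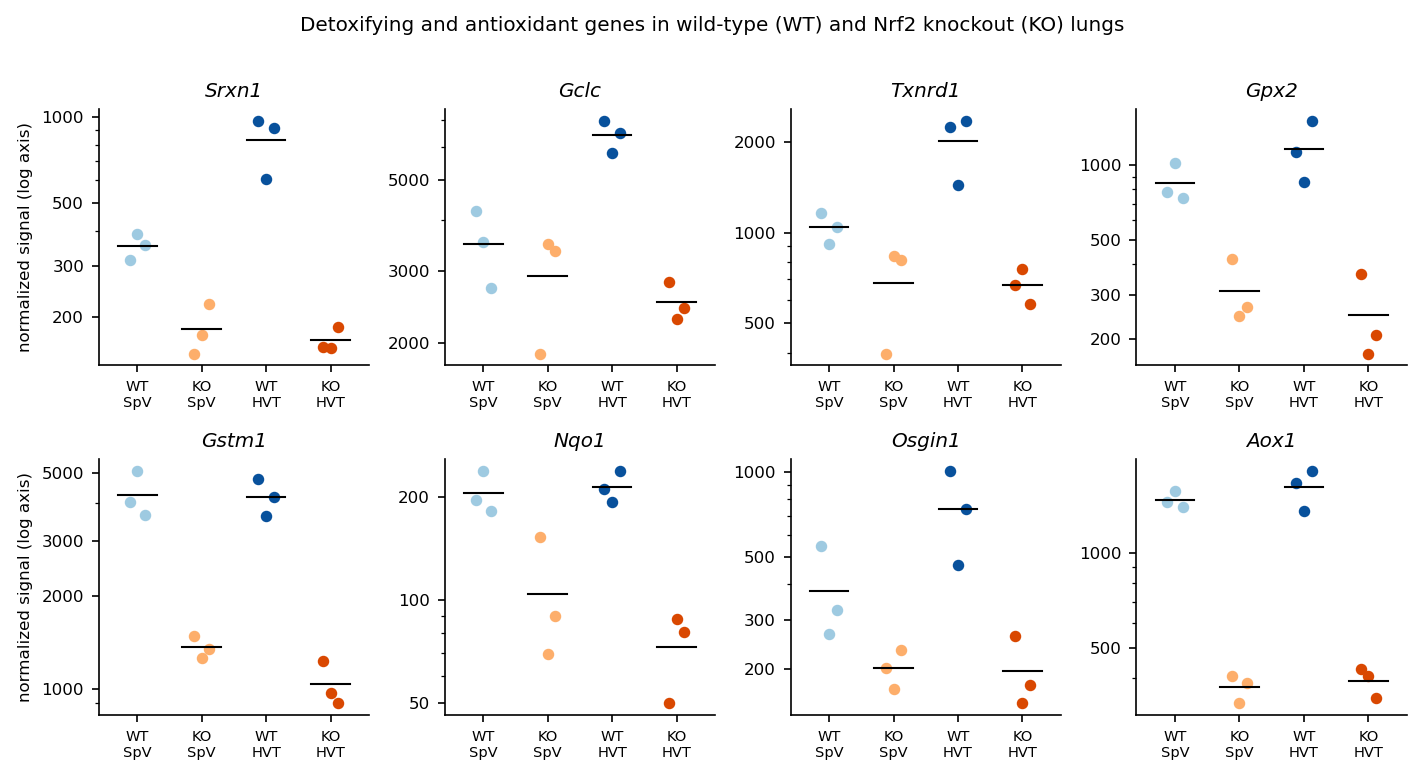
Normalized signal (log axis) of 8 detoxifying and antioxidant genes on each of the 12 arrays, with 3 arrays per group as points and the group mean as a line; WT is wild type, KO is Nrf2 knockout, SpV is spontaneous and HVT mechanical ventilation. In each panel the 3 KO HVT arrays lie below the 3 WT HVT arrays; Gclc falls from between 5824 and 6952 to between 2285 and 2824, while its SpV groups overlap.

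The SpV arrays are not shared with the ventilated comparison, apart from the signal filter and a common estimate of the spread, and gave the genotype difference a second reading. Of the 38 genes that fell under HVT, 37 were also lower in the SpV knockout (51.4% of all genes were), 30 of them at an unadjusted p under 0.05 (7.14% of all genes), and 10 were called there, where 31 genes (0.334%) passed in all. Among the 31 that rose, 30 were also higher under SpV (48.6% of all genes were), 21 at an unadjusted p under 0.05 (6.62%) and 4 called. Thus 14 genes were called under both kinds of breathing. On the SpV arrays, the 3 knockout arrays lay wholly below the 3 wild-type arrays for 28 of the genes that fell (9.54% of all genes). They lay wholly above for 24 of those that rose (8.90%). The signal filter took in the SpV arrays too, and Nfe2l2, Ces1g, Ces1f, M1ap and AI506816 reached it on wild-type arrays alone. Mterf2 and Rd3 reached it on knockout arrays alone. SpV arrays also entered the choice of the 69 genes through the shared estimate of the spread, which favours genes whose SpV arrays lie close together. These SpV counts are thus not independent of that choice.

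For several antioxidant genes the HVT value was the larger of the pair. Gclc had -1.35 under HVT and -0.29 ± 0.23 under SpV, Srxn1 -2.20 and -0.92 ± 0.21, Txnrd1 -1.54 and -0.67 ± 0.27, and Cbr3 -1.42 and -0.51 ± 0.27. In contrast Aox1 had -1.99 and -1.93 ± 0.16, Gsta3 -1.97 and -1.84 ± 0.25, and Ces1f -3.15 and -3.29 ± 0.35. Since genes were picked for their HVT difference, that 33 of the 38 fallen genes had the larger value under HVT is a description. The median of the 38 was -1.50 under HVT and -0.77 under SpV, and that of the 31 risen genes 1.43 and 0.70.

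The difference between the genotype effects was tested as an interaction, and 0 of 9294 genes passed (limma, smallest adjusted p = 0.199), with 452 (4.86%) at an unadjusted p under 0.05. Among the 69 genes, Plaur, Gas1, Srxn1, Entpd5 and Akap12 had the smallest interaction p. Plaur, the urokinase receptor, had 1204, 1104 and 1348 in ventilated wild type and 424, 478 and 716 in ventilated knockout lungs, a fall of 1.18 ± 0.21 on the log2 scale (adjusted p = 0.0248). Under SpV its signals were 432, 449.8 and 622 in wild type and 579, 673 and 697 in the knockout. High values of Plaur were thus seen on the ventilated wild-type arrays, and the interaction was -1.56 ± 0.29 (unadjusted p = 0.000164, adjusted p = 0.255). Srxn1 had an interaction of -1.28 ± 0.29 (unadjusted p = 0.000854, adjusted p = 0.61).

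Akap12, a scaffold that binds protein kinase A, had 3388, 4958 and 3588 in ventilated wild type and 1069, 1438 and 1294 in the knockout (-1.63 ± 0.25, adjusted p = 0.0106), with -0.38 ± 0.25 under SpV. Gas1, a membrane protein linked to growth arrest, went the other way: 388, 624 and 483 in wild type and 1074, 1336 and 998 in the knockout (1.18 ± 0.23, adjusted p = 0.0401), with -0.34 ± 0.23 under SpV. A further probe set of Gas1 had 0.66 ± 0.44 under HVT. Low Gas1 was seen on the wild-type ventilated arrays, whose SpV counterparts were at 1246, 837 and 1089. Entpd5, a nucleotide-hydrolysing enzyme of the endoplasmic reticulum, fell by 1.38 ± 0.16 on the log2 scale (adjusted p = 0.00134), against -0.54 ± 0.16 under SpV. Further probe sets of Entpd5 had -1.34 ± 0.34, -0.68 ± 0.24 and -0.26 ± 0.20 under HVT. The interaction result depended on knockout SpV array 1: without it 81 genes passed, and 5 of these were among the 69. They were Plaur at -1.64 (adjusted p = 0.03), Akap12 at -1.57 (adjusted p = 0.0138), Srxn1 at -1.40 (adjusted p = 0.0443), Gclc at -1.34 (adjusted p = 0.03) and Gas1 at 1.69 (adjusted p = 0.03).

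**Figure D2:**
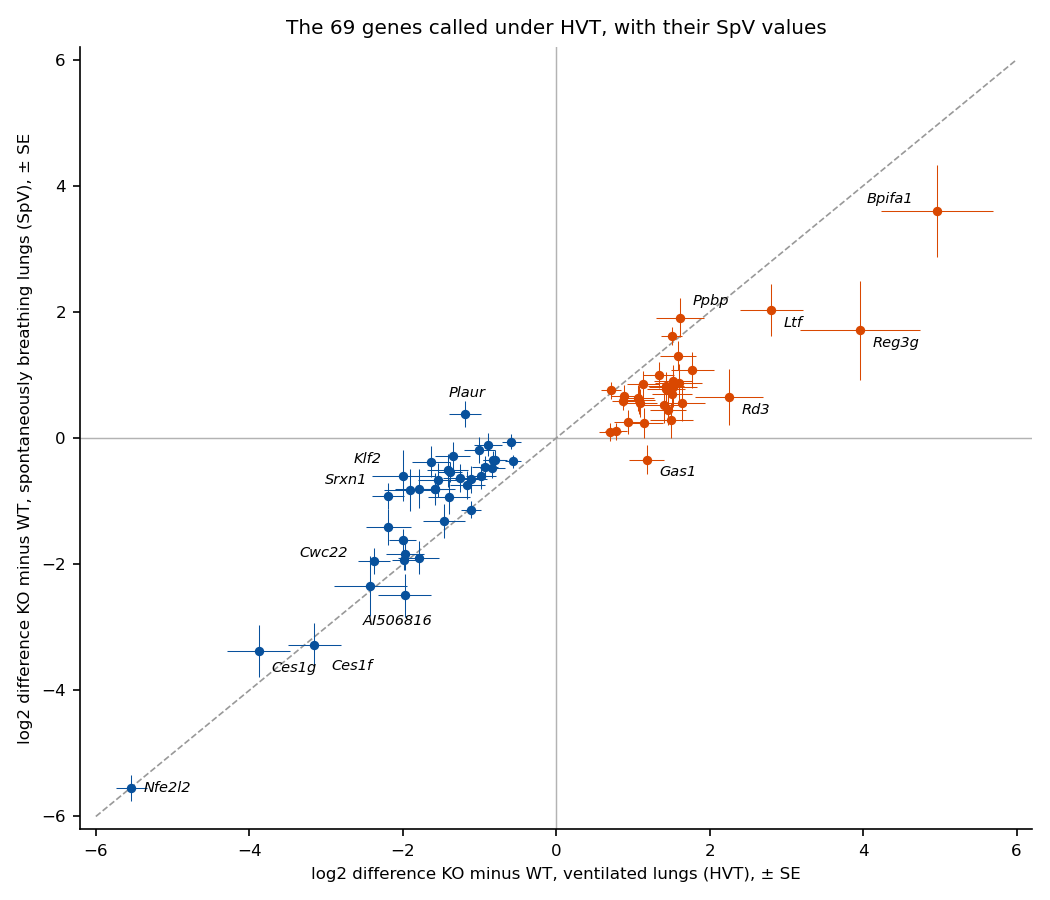
Log2 difference knockout minus wild type for the 69 genes called in ventilated lungs (x axis, ± SE) against the same difference in spontaneously breathing lungs (y axis, ± SE), blue for genes that fell and orange for genes that rose; the dashed line marks equal values. Plaur and Gas1 are the 2 genes with opposite signs, at -1.18 and 0.38 and at 1.18 and -0.34.

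Immediate early genes, transcription factors and regulators that cells switch on within minutes of a stimulus such as stretch, were nearly all lower in ventilated knockout lungs, though 1 passed the test. Of 23 measured, 22 had values below 0 (48.3% of all genes did), with a median of -0.82, and the arrays were apart in the lower direction for 10 (1204 of all 9294 genes were). The 1 called member was Klf2, a factor that endothelium raises under shear flow, with 2385, 3592 and 1744 in wild type and 569, 586 and 674 in the knockout (-1.99 ± 0.41, adjusted p = 0.0468). Fos, a subunit of AP-1 and chosen here after its values were seen, had 5934, 4877 and 3770.5 against 1244, 1645 and 2592, -1.45 ± 0.37 (adjusted p = 0.11). Fosb, its relative and likewise chosen, had 811, 216 and 253 against 20.8, 109 and 139, -2.06 ± 0.64 (adjusted p = 0.194). Both sets of signals are apart, and neither gene passed.

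The same list stood on the other side under SpV, with 19 of 23 members above 0 and a median of 0.46. Fos had 1.56 ± 0.37 there (adjusted p = 0.106) and an interaction of -3.01 ± 0.52 (unadjusted p = 7.12e-05, adjusted p = 0.221). MAPK brakes, phosphatases and inhibitors that the same signals induce, had 12 of 13 values below 0 under HVT, a median of -0.39 and 0 called, with 0.22 under SpV. Klf2 was called in 3 of the 12 fits that leave out 1 array. The immediate early median was -0.46 without wild-type HVT array 1, whose score on the list was the highest, and the MAPK median -0.25 without it. The acute cytokines and the NF-kB feedback genes had 0 called and medians whose sign was not stable. For cytokines it was -0.20 under HVT, -0.053 without knockout array 1, -0.32 without knockout array 3 and 0.12 when fitted with the actin ratio. For NF-kB genes it was -0.12, -0.0022 without wild-type array 1, -0.23 without wild-type array 3 and 0.048 when fitted with the actin ratio.

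**Figure D3:**
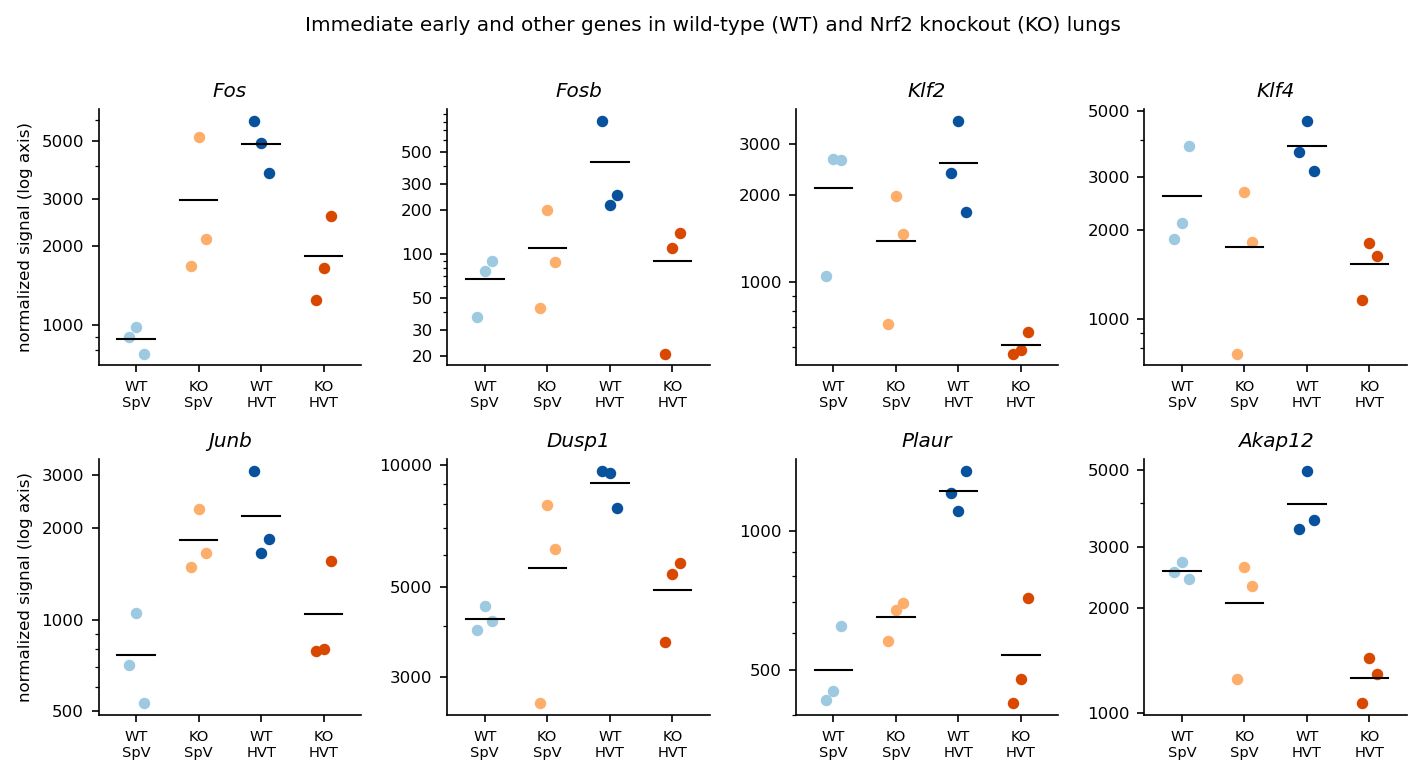
Normalized signal (log axis) of 8 genes on each of the 12 arrays, with 3 arrays per group as points and the group mean as a line; WT is wild type, KO is Nrf2 knockout, SpV is spontaneous and HVT mechanical ventilation. Plaur and Akap12 separate WT HVT from KO HVT, and the Fos signals of KO HVT, from 1244 to 2592, lie between those of WT SpV and WT HVT.

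Many other genes that fell belonged to no list. In all, 20 of the 38 were in none. Osgin1, an oxidative stress-induced growth inhibitor that is known as an Nrf2 target, had 1009.7, 469 and 737 in wild type and 263, 152 and 177 in the knockout (-1.79 ± 0.31, adjusted p = 0.0242). Fads1, a fatty acid desaturase, had -0.82 ± 0.14 (adjusted p = 0.0242), Slc48a1, a heme transporter, -0.80 ± 0.16 (adjusted p = 0.0415), and Pltp, the phospholipid transfer protein, -0.57 ± 0.10 (adjusted p = 0.0318). These smaller falls still left the 3 arrays of each group apart, though a further probe set of Slc48a1 had -0.20. M1ap, a meiotic protein, had 259, 126 and 280.3 in wild type and 77.8, 7.77 and 17.5 in the knockout (-2.42 ± 0.47, adjusted p = 0.0401). Tmem14c, a mitochondrial protein of heme synthesis, had 687, 709 and 609 against 338, 101 and 129.9 (-1.91 ± 0.33, adjusted p = 0.0242), and the transcript AI506816 had 135, 128 and 217 against 44.1, 20.1 and 22.4 (-1.98 ± 0.34, adjusted p = 0.0242). M1ap and AI506816 reached the signal filter on wild-type arrays alone. They were tested because they were high there, and their calls are no independent result.

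Chromosome 2, where Nfe2l2 lies, held 10 of the 69 genes (14.5%) and 727 of all genes tested (7.82%): Nfe2l2, Cwc22, Srxn1, Serinc3, Aplnr and Pltp among those that fell and Trub2, Mybpc3, Ttn and Bpifa1 among those that rose. Cwc22, a splicing factor at chr2:77881159-77946356, had 903, 617 and 769 in wild type and 107, 162 and 133 in the knockout, a log2 difference of -2.38 ± 0.21 (adjusted p = 0.000118) and -1.95 ± 0.21 under SpV. Of the 100 measured genes nearest to Nfe2l2, 4 were called (0.742% of all genes were): Cwc22 and the apelin receptor Aplnr (-0.83 ± 0.17, adjusted p = 0.0419) fell, and Ttn and Mybpc3 rose. Ttn and Mybpc3 also belong to the heart muscle list described below, in which all 21 measured members had values above 0. The part of position in these calls was not tested. Serinc3, a membrane protein, had 6579, 8329 and 7860.3 against 3208, 3478 and 3790.4 (-1.11 ± 0.13, adjusted p = 0.00182), and -1.14 ± 0.13 under SpV. For both Cwc22 and Serinc3 all 6 knockout arrays lay below all 6 wild-type arrays; 2.53% of all genes had the genotypes apart over the 12 arrays in either direction.

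Airway secretory proteins gave the 3 largest rises among called genes. Bpifa1 had signals of 64.1, 121 and 575 in wild type and 13043, 3514 and 4269.5 in the knockout, a log2 difference of 4.96 ± 0.73 (adjusted p = 0.00982). Reg3g, an antibacterial lectin of epithelia, had 20.9, 34.8 and 551 against 2367, 1194 and 1372, 3.96 ± 0.78 (adjusted p = 0.0419). For both genes wild-type array 3 stood well above arrays 1 and 2, and still below every knockout array. Ltf, the iron-binding lactoferrin of airway glands and neutrophils, had 218, 239 and 504 against 4090.0, 1798 and 1396, 2.80 ± 0.41 (adjusted p = 0.00982). Scgb3a1, a secretoglobin, had 8008, 8996 and 15376 against 21666, 19708 and 18368, 0.94 ± 0.19 (adjusted p = 0.0481). All 3 knockout arrays were above every wild-type array for each of the 4 genes.

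These 4 were the called members of 13 measured club and secretory cell genes (0.334% of all genes tested were called higher). Of the 13, 11 had values above 0 (51.7% of all genes did), with a median of 0.94 (0.09 under SpV). The defining club cell genes did not pass: Scgb1a1 had 0.08 ± 0.08 (adjusted p = 0.695), Cyp2f2 0.10 ± 0.11 (adjusted p = 0.732) and Scgb3a2 0.14 ± 0.09 (adjusted p = 0.557). Their signals, from 19054 to 25274 on the 6 arrays, sit at the top of the arrays' range, so a difference in these genes may not be measurable. Pigr, which carries IgA across epithelium, had 1.07 ± 0.24 (adjusted p = 0.0701), and the mucin Muc5b 1.30 ± 0.29 (adjusted p = 0.0774); both were chosen after their values were seen. Bpifa1 and Ltf were also higher in the SpV knockout, at 3.5997 ± 0.73 and 2.03 ± 0.41, each with an adjusted p of 0.0652. The number called in the list was 0 without wild-type array 2, 1 without wild-type array 1, 2 without any one of the knockout arrays or of the wild-type SpV arrays or without knockout SpV array 3, and 7 without knockout SpV array 1. In whole-lobe RNA, more cells of a type and more RNA per cell cannot be told apart.

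Heart muscle genes were higher in the knockout lobes. All 21 measured members had values above 0 (51.7% of all genes did), and 9 were called (0.334% of all genes were called higher). The arrays were apart in the higher direction for 18 (12.4% of all genes), with a median of 1.35 under HVT and 0.59 under SpV. Tnnt2, cardiac troponin T, had 3293, 2799 and 4985 in wild type and 8008, 8245 and 7362 in the knockout (1.13 ± 0.21, adjusted p = 0.034). Myh6, a cardiac myosin heavy chain, had 5626, 4658 and 7728 against 10227, 11808 and 10518 (0.88 ± 0.17, adjusted p = 0.0385). Even in wild type these cardiac transcripts were strong, and they were stronger on each knockout array. Mybpc3, the cardiac myosin-binding protein, had 448, 291 and 499.5 against 1151, 1369 and 1221 (1.59 ± 0.23, adjusted p = 0.00982), and 1.31 ± 0.23 under SpV (adjusted p = 0.0366). Ttn, the giant spring protein titin, had 2159, 1872 and 2353 against 4943, 10546 and 5664 (1.64 ± 0.30, adjusted p = 0.0276).

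The other called members were Csrp3 (1.43 ± 0.24, adjusted p = 0.0178), Sln (1.60 ± 0.31, adjusted p = 0.0379), Ryr2 (1.41 ± 0.28, adjusted p = 0.0419), Tnni3 (1.10 ± 0.22, adjusted p = 0.0419) and Myl7 (0.78 ± 0.14, adjusted p = 0.0253). The muscle genes Smpx (1.77 ± 0.28, adjusted p = 0.0158), Myoz2 (1.51 ± 0.26, adjusted p = 0.0242) and Smyd1 (1.52 ± 0.31, adjusted p = 0.0468) rose outside the list. A further probe set of Smyd1 had 0.62. Hamp, the iron hormone hepcidin that heart also makes, rose too (1.52 ± 0.25, adjusted p = 0.016). Calls in the heart list depend on single arrays: 0 of the 21 genes passed without knockout array 2 or 3, 1 without wild-type array 1 or 2 and 2 without knockout array 1. In contrast, 11 passed without wild-type array 3. The spontaneously breathing arrays mattered too, with 4 called when knockout array 3 of that group was left out, 5 when wild-type array 1 was and 13 when knockout array 1 was. The median stayed between 1.05 and 1.54 whichever array was left out. How much atrial or vessel tissue was cut with each lobe is not in the labels.

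**Figure D4:**
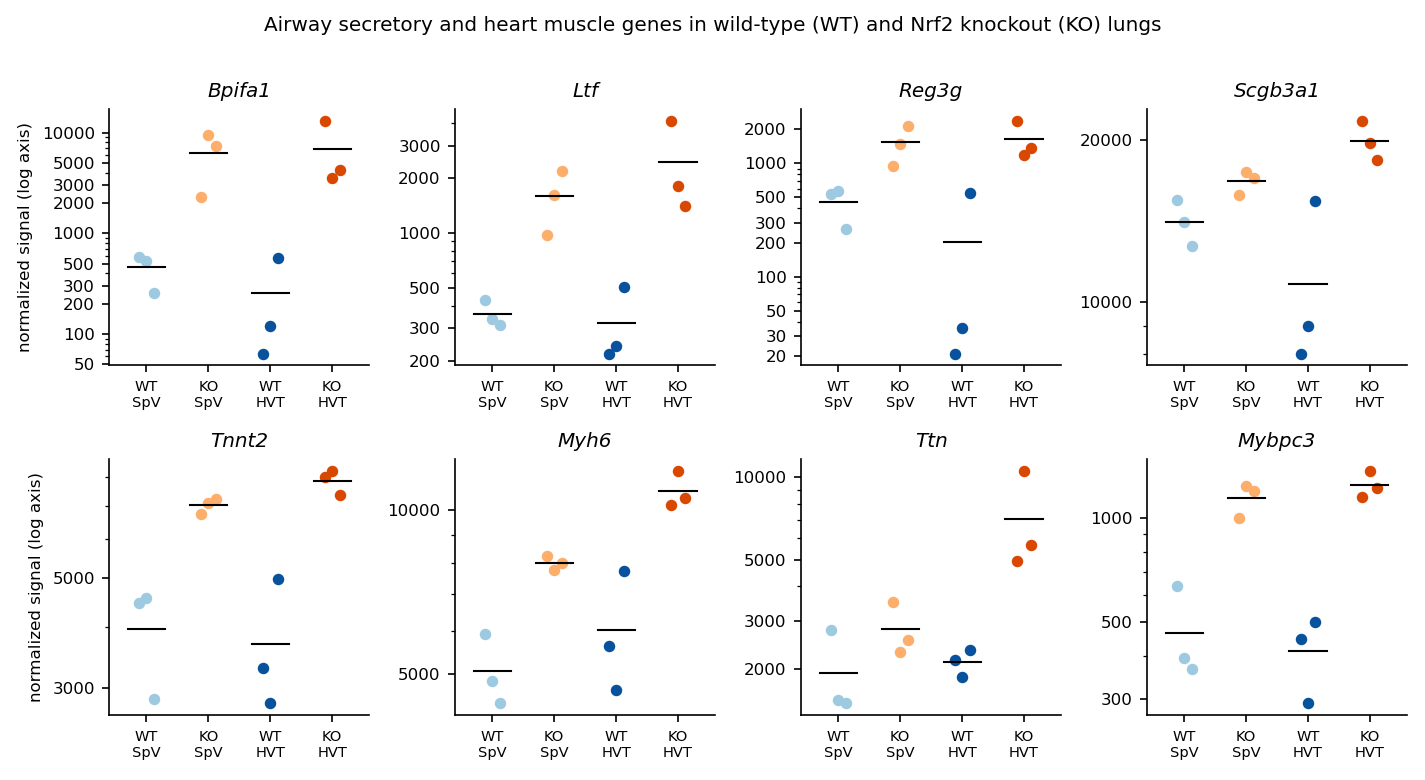
Normalized signal (log axis) of 4 airway secretory genes (upper panels) and 4 heart muscle genes (lower panels) on each of the 12 arrays, with 3 arrays per group as points and the group mean as a line; WT is wild type, KO is Nrf2 knockout, SpV is spontaneous and HVT mechanical ventilation. The KO HVT arrays lie above the WT HVT arrays in every panel, from 3514 to 13043 against 64.1 to 575 for Bpifa1.

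Knockout array 2 also carried skeletal muscle and fat transcripts. Acta1, skeletal actin, was at 15456 there and between 122 and 279 on the other 5 ventilated arrays, and Myh2, a fast myosin, was at 10180.0 against 7.75 to 103. The skeletal muscle list had 7 of 7 values above 0 and a median of 2.52, with 0 called, and the median was 0.77 without that array. The fat list had 0.69, with -0.18 without it and 1.21 without knockout array 3. In the skeletal muscle list, Myh2, Tnnt3 and Tnni2 reached the signal filter on knockout arrays alone. They were measured because they were high there, so the count of 7 above 0 is no independent result. Respiratory chain genes had 72 of 78 values above 0 and a median of 0.35, with 1 called, Cox7a1, the muscle form of a cytochrome oxidase subunit (1190.2, 2896 and 1356 in the knockout against 500.2, 531 and 743, 1.50 ± 0.28, adjusted p = 0.0336). The respiratory chain median was 0.19 without knockout array 2, 0.00 under SpV, and -0.50 on the unscaled values, where the median of all genes is -0.80. Without knockout array 2, 18 genes were called in all, 17 of them among the 69, and 0 heart genes. Bpifa1 then had 5.33 and Ltf 2.94, both still called, while Cox7a1 had 1.10 (adjusted p = 0.0642), Ttn 1.31 (adjusted p = 0.0941) and Smyd1 1.21 (adjusted p = 0.163). The part of muscle and fat tissue in the other rises was not tested.

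Alveolar type I cells and endothelium form the air-blood barrier, and most of their markers had values below 0 in the ventilated knockout, with 1 called gene between them. Of 9 type I genes 8 had values below 0 (48.3% of all genes did), and the arrays were apart in the lower direction for the same number (1204 of all 9294 genes were), with a median of -0.84 and 0 called. Hopx, a type I transcription cofactor, had -0.86 ± 0.24 (adjusted p = 0.163), the water channel Aqp5 had 2461, 3356 and 2786 in wild type and 1972, 1409 and 1438 in the knockout (-0.84 ± 0.19, adjusted p = 0.079), and Ager, the receptor RAGE, had 5404, 8727 and 5636 against 2060.1, 1785 and 2666 (-1.58 ± 0.48, adjusted p = 0.192). These type I genes missed the threshold although every knockout array was below every wild-type array.

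Endothelial genes had 17 of 18 values below 0 (48.3% of all genes), 13 with arrays apart in that direction (1204 of all 9294 genes), a median of -0.91 and 1 called. The called gene was Car4, a carbonic anhydrase of lung capillaries (not called without wild-type array 2 or knockout array 2 or 3), with 1479, 2824 and 2113 in wild type and 668, 523 and 575 in the knockout (-1.79 ± 0.27, adjusted p = 0.0106) and -1.89 ± 0.27 under SpV. Sox7, an endothelial transcription factor in no list, also fell, with 677, 1001 and 654 against 277, 247 and 276 (-1.46 ± 0.27, adjusted p = 0.0325). Cdh5, the cadherin of endothelial junctions, had -2.05 ± 0.53 (adjusted p = 0.121), whereas Kdr, the VEGF receptor, had 0.23 ± 0.17 (adjusted p = 0.582). The endothelial median was -0.87 under SpV, a value that includes knockout SpV array 1, whose endothelial score was the lowest of the 12 arrays. Fitted with each array's actin ratio, the medians were -0.63 for endothelium and -0.54 for type I cells. Without knockout SpV array 1, 11 endothelial and 6 type I genes were called lower under HVT. The wild-type SpV arrays, with actin ratios of 2.51, 2.08 and 2.36, had the endothelial scores 0.46, 0.81 and 0.62. Scores were 0.27 and 0.03 on knockout SpV arrays 2 and 3 (ratios 1.39 and 1.52) and -0.96 on array 1 (8.76). Ventilated wild-type arrays had 0.0078, 0.68 and 0.021 at ratios of 1.99, 1.58 and 1.53. Ventilated knockout arrays had -0.57, -0.61 and -0.76 at ratios of 3.10, 2.21 and 3.02. The part of RNA quality in these lists was not tested beyond that fit. Inmt, a methyltransferase abundant in lung stroma, fell as the 1 called gene of 17 for fibroblasts and matrix (-0.93 ± 0.17, adjusted p = 0.0325).

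Blood and immune cell genes moved little as called genes. Neutrophil genes had 10 of 13 values below 0 and a median of -0.53, against 0.72 under SpV, and -0.34 without wild-type array 2. S100a8, a calprotectin subunit abundant in neutrophils, had 1819, 4352 and 1687 in wild type and 842, 778 and 937 in the knockout (-1.46 ± 0.47, adjusted p = 0.206). The 1 called member of this list was Ltf, in the opposite direction, which the secretory list also holds. Interferon-stimulated genes had 16 of 18 values above 0 at a median of 0.76 and 0 called. That median rested on knockout array 3, on which Rsad2, an antiviral enzyme, was at 3212 against 757 and 709.9 on the other knockout arrays, and it was 0.15 without that array and 1.25 without knockout array 2. Ppbp, a chemokine of platelets, rose from 228, 332 and 302 to 797, 746 and 1235 (1.61 ± 0.31, adjusted p = 0.0379) and by 1.91 ± 0.31 under SpV, while the platelet genes Pf4 and Itga2b had 0.79 (adjusted p = 0.194) and 0.21 (adjusted p = 0.749).

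**Figure D5:**
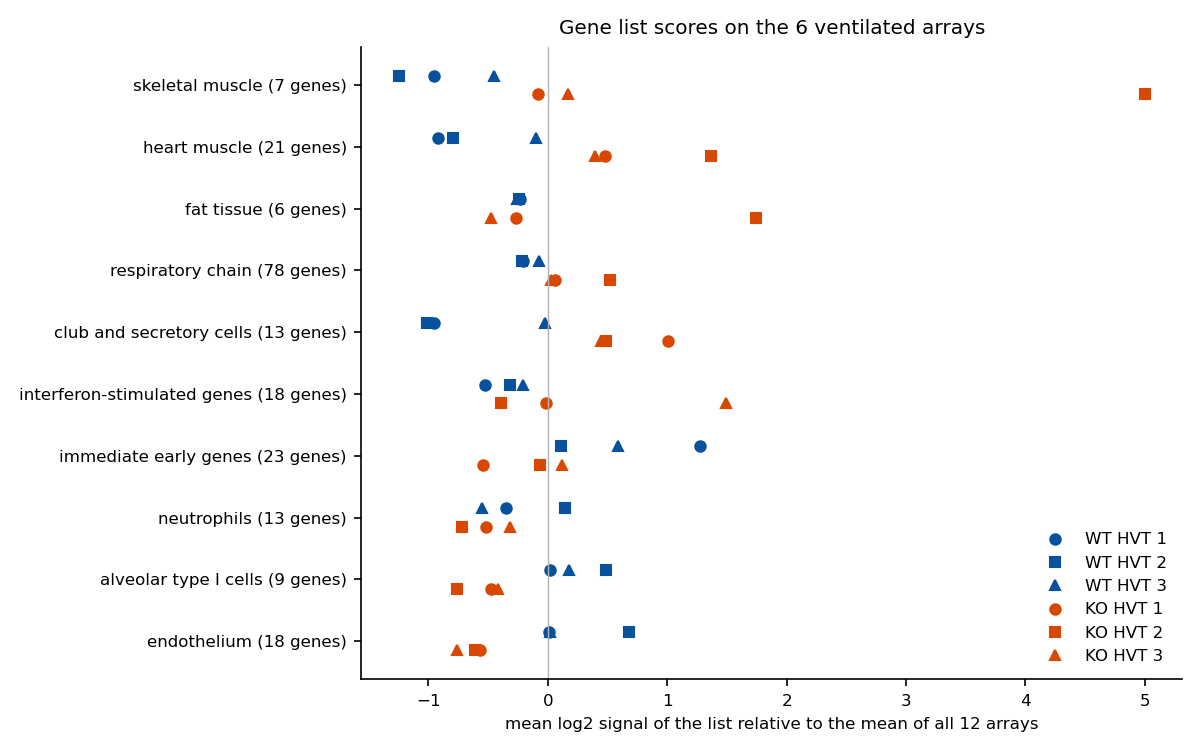
Mean log2 signal of each gene list relative to the mean of all 12 arrays (x axis), for the 3 wild-type (blue) and 3 knockout (orange) ventilated arrays, with one marker shape per replicate number. Knockout array 2 stands apart for skeletal muscle and for fat tissue, at 1.75 in the latter, and knockout array 3 for interferon-stimulated genes, at 1.495 (0.15 is the list's median difference without it).

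Among the 16 risen genes in no list were proteins of several kinds. Vamp3, an endosomal SNARE, had 1924, 1742 and 1708 in wild type and 5068, 4481 and 5851 in the knockout (1.50 ± 0.14, adjusted p = 0.000212) on its brightest probe set. The other probe sets of the gene had values from -0.41 to 0.18, so the rise belongs to 1 probe set that can bind related transcripts. Mterf2, a mitochondrial transcription factor, had 47.3, 52.1 and 81.5 against 182, 194 and 193 (1.46 ± 0.24, adjusted p = 0.0178), and the mitochondrial rRNA methyltransferase Tfb1m 101, 113 and 109 against 302, 248 and 229.8 (1.15 ± 0.24, adjusted p = 0.0493). Mterf2 reached the signal filter on knockout arrays alone, ventilated and SpV. It was tested because it was high there, and its call is no independent result. Ssbp1, the mitochondrial single-strand binding protein, had 0.70 ± 0.14 (adjusted p = 0.0484) and the ribosome assembly kinase Riok2 1.33 ± 0.20 (adjusted p = 0.011). Further probe sets had 0.27 for Ssbp1 and -0.12 for Riok2. Rd3, a regulator of guanylate cyclase known from the retina, had 13.4, 13.9 and 25.3 against 149.7, 121 and 157. It was the 1 called gene that reached the signal filter on the knockout ventilated arrays alone, so it was tested because it was high there, and its call is no independent result.

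Several lists of general cell machinery had medians near 0. Ribosomal proteins had a median of -0.03 over 45 measured, heat shock chaperones 0.01 over 19 and genes of the endoplasmic reticulum stress response 0.05 over 24, with 0 called in each. Proteasome genes had 29 of 38 values above 0 (51.7% of all genes did), with a median of 0.12 and 0 called. Their arrays were apart in the higher direction for 12 (12.4% of all genes).

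Of the 69 genes, 26 had several probe sets that passed the filter, and in 6 of these (Anxa4, Pebp1, Riok2, Trub2, Vamp3 and Zfp24) the probe sets had values of opposite sign. In 11 genes the probe set used can bind related transcripts. When each of the 12 arrays was left out in turn, 12 genes were called every time: Nfe2l2, Ces1g, Ces1f, Cwc22, Srxn1, Gpx2, Gstm1, Aox1, Gsta3, Entpd5, Serinc3 and Vamp3. Bpifa1 was called in 11 of the 12 fits, Akap12 and Ltf in 10, Car4 in 9, Gclc, Txnrd1 and Plaur in 7, and Klf2, Reg3g and Cbr3 in 3, while Nqo1 and Scgb3a1 were called in 2. The count of called genes was 16 without wild-type HVT array 2, 19 without array 1 and 45 without array 3, and 42, 18 and 17 without knockout HVT arrays 1, 2 and 3. It was 43 and 45 without wild-type SpV arrays 1 and 3, and 42 without knockout SpV array 3.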

How the data were processed

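Per the labels, the authors read 12 lung RNA samples on Affymetrix 430A arrays and deposited probe set signals, linear intensity values made with GCOS 1.4 per the submitters' processing notes. The labels describe scaling of every array to a mean of 500, which the deposited intensity values do not show. Each array was therefore multiplied to a 2% trimmed mean of 500 and the 12 arrays were quantile normalized. Control probe sets (64) were left out, signals had to reach 100 on 3 arrays, and 16 was added before log2. GEO's platform table gave 20393 probe sets a single gene, 691 several and 1555 none, and 20364 of the single genes were matched to RefSeq (GRCm38.p6). The brightest probe set stood for each of 9294 genes.

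In R 4.3.3, limma 3.58.1 fitted a mean per group over all 12 arrays (eBayes with trend, 8 residual and 4.44 prior degrees of freedom, two-sided, Benjamini-Hochberg over 9294 genes). The script was tested on simulated data. The median standard error was 0.231; precision is limited by having 3 arrays a group. Labels do not state separate animals, so p-values measure only how these samples vary, and that spread may be technical. Named genes were Nfe2l2, the 12 largest rises and falls, up to 4 called members of each of 51 lists (or 2 with the smallest p), 5 genes with the smallest interaction p, and defining markers; Anxa4, Fads1, Mterf2, Myh6, Osgin1, Pebp1, Pltp, Riok2, Ryr2, Serinc3, Slc48a1, Sox7, Ssbp1, Tfb1m, Tmem14c, Tnni3, Tnnt2, Trub2, Vamp3, Zfp24, Akr1b8, Gstm2, Itga2b, Pf4, Sod2, Txn1 and Txnrd2 were chosen after their values were seen. Genes and lists were chosen with earlier results of these data known. Alternatives covered scaling, pseudocount, filter, probe set choice, eBayes trend, array weights, the actin ratio, a replicate block, the 6 HVT arrays alone and each array left out.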

Additional observations from a re-analysis of the deposited data

Results flagged for a closer look

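Maff, a small MAF protein that pairs with Nrf2 and with other partners, had genotype differences of opposite sign under the 2 kinds of breathing. Under HVT its signals were 1337, 1069.6 and 1174 in wild type and 518, 585 and 759 in the knockout (log2 difference -0.94 ± 0.22, limma adjusted p = 0.0943). Under SpV they were 139, 232 and 268 in wild type and 391, 447 and 447 in the knockout (0.999 ± 0.22, adjusted p = 0.0865). No array of one genotype reached into the other in either case. The interaction was -1.94 ± 0.32 (unadjusted p = 4.29e-05), which did not pass over all genes (adjusted p = 0.199). Without knockout SpV array 1 it was -1.998 ± 0.32 and passed (adjusted p = 0.0219).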

How the results depend on the processing

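The 69 calls under HVT, 31 under SpV and 0 in the interaction were recounted under each alternative. On the deposited values without scaling they were 29 and 6, with the median of all genes at -0.80. With array weights, a fit that did not fully converge, they were 549, 1433 and 173. Fitted with the actin ratio they were 139, 386 and 1, and with the 6 HVT arrays alone the first was 165. Leaving out each array gave 16 to 470, 11 to 168 and 0 to 81; the cause was not tested. Equal medians gave 52 calls under HVT, 16 higher and 36 lower (30.8% higher, against 44.9% as reported), and the unscaled values 4 higher and 25 lower (13.8% higher). With a replicate block the count was 66, of which 51 were shared with the 69; same-numbered HVT arrays correlated at -0.17, -0.057 and -0.026, so the numbers did not pair the HVT samples; the SpV pairs had 0.23, 0.076 and 0.12, not all over 0.1. Other settings gave 46 to 69 calls under HVT.

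Of the log2 differences of genes named by rule under the alternatives, 2276 kept direction and side of the threshold and 283 lost the call. A further 79 gained a call and 24 changed sign, none of them for a called gene of that set. Among called genes outside it, Anxa4, Naf1 and Ssbp1 changed sign on the unscaled values, to -0.0082, -0.20 and -0.16. Unscaled values turned Cd1d1 to -0.62, Birc2 -0.60, Psma7 -0.54, Cnn1 -0.47, Psat1 -0.43, Mcm7 -0.42, Rspo1 -0.40, Csf1 -0.38, C1qb -0.32, Tekt1 -0.29, H2-Eb1 -0.24, Chac1 -0.24, Hsph1 -0.18, Rpl27a -0.14, Ms4a1 -0.095, Cyp2s1 -0.064, Sftpa1 -0.037 and Des -0.013, all above the shift of all genes. The mean of probe sets turned Csf1 to -0.088 and the actin fit Add2 to -0.094. Over the fits without 1 array Cd1d1 ranged from -0.23 to 0.36, Add2 from -0.0038 to 0.50 and Krt19 from -0.28 to 0.036. The cause was not tested.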

Other observations

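Knockout array 1 of the ventilated group had the highest Bpifa1 (13043) and Ltf (4090.0) signals of the 12 arrays, and the immunoglobulin heavy chain Ighm was at 5771, 3755 and 2583 on the knockout against 763, 706 and 1554 on the wild-type ventilated arrays (2.00 ± 0.48, limma adjusted p = 0.0978). The B and plasma cell list had 11 of 12 values above 0 at a median of 0.39 with 0 called, and 0.59 without wild-type array 1; on the unscaled values the median was -0.26, against -0.80 for all genes. Agr2, a secretory cell disulfide isomerase, had 204, 128 and 125 on the knockout against 35.2, 19.0 and 44.8 on the wild-type ventilated arrays (1.79 ± 0.43, adjusted p = 0.0993), with -0.34 ± 0.43 under SpV. It reached the signal filter on the knockout ventilated arrays alone, so it was tested because it was high there. Agr2 was chosen after its values were seen.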
